A study of Mus musculus with 35 samples.

Results

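The limb bud and the frontonasal prominence (FNP), the midline swelling of the face that carries the nasal pits, were compared by bulk RNA-seq in mouse embryos at embryonic day (E) 11.5. The comparison took the 6 libraries labelled CD1 Limb and the 6 labelled CD1 FNP, 12 of the 35 libraries of the series, by label alone. The groups were both wild-type embryos of CD1, an outbred mouse stock, with no allele, agent or treatment separating them. Each library was made from pooled tissue of several embryos, and the study used mice of both sexes. The labels give neither the fore or hind origin of the Limb tissue nor the number of embryos in a pool. The other libraries, from the mandibular prominence (MNP), the maxillary prominence (MXP) and the tissues labelled dNT and vNT, entered the shared estimate of the spread and are given only where they show the level of a gene. The study asked whether genes of the cilium are used differently by tissues that ciliopathies affect, and Limb against FNP is 1 of the comparisons between such tissues that its design allows.

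At this age the limb bud is a core of mesenchyme from the lateral plate mesoderm under an ectoderm whose distal edge forms the apical ectodermal ridge. The ridge supplies Fgf signals, the posterior mesenchyme supplies Sonic hedgehog, muscle precursors enter from the somites, and genes of the HoxA and HoxD clusters are switched on in the order in which they lie along the chromosome, the last of them in the future hand and foot. The mesenchyme of the FNP comes mostly from cranial neural crest that leaves the neural tube in front of the domains of Hox expression, and it is known for Alx, Pax, Six2 and forkhead transcription factors. Its ectoderm thickens into the nasal placodes, which give rise to the olfactory epithelium, its neurons and the neurons that make gonadotropin-releasing hormone.

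RefSeq held the start region of 15 of the 20 genes with the largest differences, 10 in each direction. Those of 5 genes that recur below are printed here because these genes stand among the largest differences, 3 higher in Limb and 2 higher in FNP. Each is a window of 300 bases, 250 before and 50 after the RefSeq start of the gene, on GRCm38.p6, which has the coordinates of mm10, and is written 5′ to 3′ on the strand of the gene. Capitals mark matches, on either strand, to TAATTA, a core read by many homeodomain proteins, or to CAATAAA, a core known for Hox proteins of the last paralogue group, which reads TTTATTG on the other strand. GTAAACA, a forkhead core, was searched too and matched none of the 5 windows. Among the windows found but not printed, that of Pou3f3, a gene higher in FNP, held GTAAACA starting 6 bases before the RefSeq start. No other window left out held a match, so the printed ones carry every TAATTA and CAATAAA match found. No match overlapped another. For Hoxd13 and Hoxd11 the RefSeq start lay 85 and 70 bases before the start of the transcript in the deposited tables, so their windows end short of it, and for the other genes printed the 2 starts were the same.
Hoxd13 (chr2:74667975-74668274, + strand): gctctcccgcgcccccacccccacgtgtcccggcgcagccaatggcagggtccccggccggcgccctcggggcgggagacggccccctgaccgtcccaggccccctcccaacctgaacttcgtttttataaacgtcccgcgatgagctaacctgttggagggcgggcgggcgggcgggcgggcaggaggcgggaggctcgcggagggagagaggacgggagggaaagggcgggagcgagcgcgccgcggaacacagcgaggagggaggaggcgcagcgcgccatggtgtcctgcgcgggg
Hoxd11 (chr2:74682073-74682372, + strand): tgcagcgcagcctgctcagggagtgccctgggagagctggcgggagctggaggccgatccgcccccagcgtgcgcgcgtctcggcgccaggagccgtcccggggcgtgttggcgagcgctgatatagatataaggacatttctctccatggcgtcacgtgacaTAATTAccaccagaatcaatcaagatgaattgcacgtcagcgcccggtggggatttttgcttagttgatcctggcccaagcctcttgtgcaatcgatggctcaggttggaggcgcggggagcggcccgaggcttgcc
Hand2 (chr8:57320733-57321032, + strand): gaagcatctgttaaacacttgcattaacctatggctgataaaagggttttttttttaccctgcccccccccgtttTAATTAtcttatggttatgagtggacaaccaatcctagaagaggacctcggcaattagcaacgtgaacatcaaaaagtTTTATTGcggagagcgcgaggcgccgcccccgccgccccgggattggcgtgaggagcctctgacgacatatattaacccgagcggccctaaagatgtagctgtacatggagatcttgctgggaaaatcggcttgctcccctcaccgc
Foxd1 (chr13:98353995-98354294, + strand): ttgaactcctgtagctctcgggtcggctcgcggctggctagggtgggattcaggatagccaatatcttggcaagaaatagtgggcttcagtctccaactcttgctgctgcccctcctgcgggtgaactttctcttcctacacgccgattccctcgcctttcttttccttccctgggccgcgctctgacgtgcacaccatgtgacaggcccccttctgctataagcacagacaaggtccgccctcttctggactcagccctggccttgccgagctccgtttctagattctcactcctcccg
Six2 (chr17:85688205-85688504, - strand): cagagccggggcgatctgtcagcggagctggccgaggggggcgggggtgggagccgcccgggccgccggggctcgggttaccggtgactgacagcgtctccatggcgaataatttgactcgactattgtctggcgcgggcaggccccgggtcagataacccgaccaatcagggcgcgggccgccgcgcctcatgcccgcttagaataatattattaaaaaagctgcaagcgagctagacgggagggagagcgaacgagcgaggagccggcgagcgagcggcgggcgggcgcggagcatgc
The Hand2 window held TAATTA starting 175 bases and TTTATTG starting 97 bases before the gene's start, and the Hoxd11 window held TAATTA starting 87 bases before it. Of all 27025 RefSeq windows of this length, 5.31% held TAATTA, 4.84% CAATAAA and 3.55% GTAAACA. Of the 9473 windows of tested genes the shares were 2.33%, 2.44% and 2.32%. A match in a window is thus a description of these letters and no more.

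The deposited values are FPKM (fragments mapped to a transcript, scaled to its length and to the size of the library), which were summed over the transcripts of each gene symbol and compared as log2(FPKM + 1). Depth can be seen only through the coverage that goes with 1 FPKM, which was 4.13 ± 0.733 in Limb and 3.21 ± 0.493 in FNP (mean ± SD, n = 6 each, exact permutation test over libraries, two-sided p = 0.0368, smallest possible 0.00216), so the Limb libraries were on average deeper. Between 11742 and 12461 genes reached 1 FPKM in a Limb library and between 12397 and 12878 in an FNP library. Across the tested genes, which are not independent of each other, Pearson's r was 0.951 to 0.987 between Limb libraries, 0.949 to 0.984 between FNP libraries and 0.906 to 0.960 across the tissues. Several libraries stood apart from their group. Limb replicate 4 had the lowest mean r with its own tissue, 0.962. In the libraries numbered 1, transcripts under 200 bases took 39.2% (Limb) and 28.9% (FNP) of all FPKM, against 0.930% to 8.36% in the others. In FNP replicates 4 and 5 the markers of neural progenitors were high, as given below. The defining genes of each label were found in its libraries. All 10 limb markers were higher in Limb, with a median difference of 5.2, and all 10 frontonasal markers were higher in FNP, with a median of -3.22. In each of these 20 genes the 6 libraries of one tissue lay beyond the 6 of the other. The marker lists were chosen with earlier results of these data known, so these counts describe the libraries and are no test of the labels.

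Of 13934 genes tested, 586 (4.21%) were called, which took a limma p under 0.05 after Benjamini-Hochberg adjustment together with a 2-fold or larger change on the log2(FPKM + 1) scale. The calls leaned to the face: 184 (1.32%) were higher in Limb and 402 (2.89%) were higher in FNP. Scaling all libraries to the same distribution (quantile normalization) changed that balance, to 222 and 299, so that 42.6% rather than 31.4% of the calls were higher in Limb. A value in parentheses after a gene name is its difference, the mean log2(FPKM + 1) of Limb minus that of FNP, so it is negative where FNP was higher, and SE and adjusted p come from limma throughout. In 509 of the 586 called genes the libraries of the tissues did not overlap, which 1424 of all genes tested (10.2%) showed, 323 (2.32%) with Limb higher and 1101 (7.9%) with FNP higher. Over all genes the median difference was -0.06, which is the value to read the medians of gene groups against. Their counts of calls are to be read against the shares over all genes, 4.21% called, 1.32% higher in Limb and 2.89% higher in FNP. The names of the tables carry 5 run numbers, whose meaning is not stated, and 3 of the runs held both tissues. Within those the 586 genes, which were called on these same libraries, had the direction of the call in 586, 586 and 583 cases. The plot of difference against adjusted p shows the Limb calls reaching further from 0 than the FNP calls, and the FNP calls outnumbering them.

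**Figure D1:**
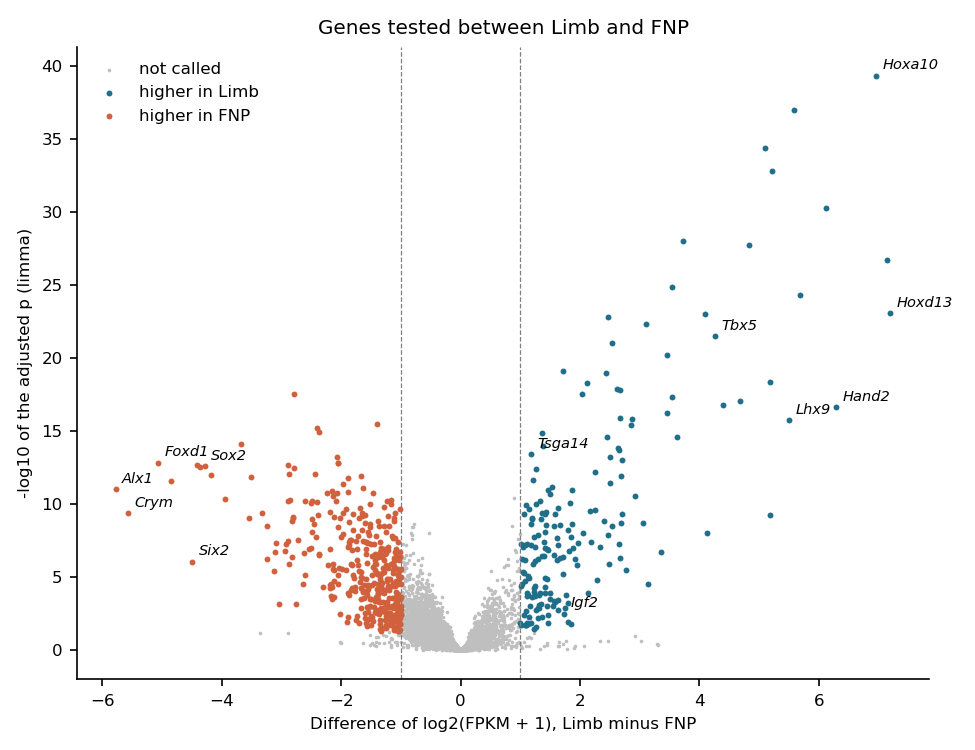
Each point is 1 of 13934 genes, with the difference of log2(FPKM + 1), Limb minus FNP, on the x axis and -log10 of the limma adjusted p on the y axis; dashed lines mark a fold of 2. The 184 genes higher in Limb (blue) extend to 7.20 at Hoxd13 and the 402 higher in FNP (orange) to -5.77 at Alx1, with grey points not called.

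The largest differences in favour of the limb were Hox genes and a few other transcription factors of the limb mesenchyme. Hoxd13 (chr2:74668310-74671598), which patterns the digits, was 52.6, 169 and 262 FPKM in the lowest, median and highest Limb library and was listed at 0 in all 6 FNP libraries. Its difference was 7.20 (SE 0.21, adjusted p = 7.9e-24), a size that depends on the 1 added to each value because one side is 0. Hoxa10 (chr6:52231197-52240854) had the tightest Limb values of these genes, 110 to 141 FPKM, and was also listed at 0 in every FNP library (difference 6.96, SE 0.06, adjusted p = 4.5e-40). The symbol Hoxa11as, the antisense partner of Hoxa11, stood at 62.4, 169 and 210 FPKM in Limb and at most 0.0253 FPKM in FNP (7.14, SE 0.16, adjusted p = 1.8e-27). Whether the libraries kept strand is not given in the sources used here, so reads of Hoxa11as and of Hoxa11 (26.2 to 42.6 FPKM in Limb, difference 5.22) cannot be told apart.

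Hand2 (chr8:57320983-57324517), a basic helix-loop-helix factor of the posterior limb bud that acts upstream of Shh, read 32.9, 95.5 and 113 FPKM in Limb and no more than 0.0875 FPKM in FNP (6.29, SE 0.31, adjusted p = 2.1e-17). The lowest Limb value belonged to replicate 4, and without 1 library at a time the difference ran from 6.19 to 6.54. Lhx9 (chr1:138825186-138847579), a LIM homeobox factor that relays ridge signals in the distal mesenchyme, was 51.0, 67.8 and 71.6 FPKM in Limb against 0.115, 0.326 and 1.14 in FNP (5.50, SE 0.29, adjusted p = 1.7e-16). None of these genes overlapped between the tissues.

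At the other end stood factors of the facial mesenchyme and the nasal placode. Alx1 (chr10:103007847-103028777), a homeobox gene needed for the midface, was 83.2, 126 and 144 FPKM in FNP and 0.829, 1.03 and 2.47 FPKM in Limb (-5.77, SE 0.46, adjusted p = 9.4e-12). Crym (chr7:120186384-120201988), which encodes a thyroid hormone binding crystallin, spread more widely in FNP, from 94.7 to 364 FPKM, and stayed between 1.69 and 5.77 FPKM in Limb (-5.58, SE 0.52, adjusted p = 3.9e-10). Foxd1 (chr13:98354245-98356705), a forkhead factor, was 29.6, 35.5 and 56.0 FPKM in FNP and at most 0.687 FPKM in Limb (-5.06, SE 0.34, adjusted p = 1.4e-13). In each of the 3 the lowest FNP library was many times above the highest Limb library.

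Six2 (chr17:85684268-85688254), a homeobox factor of the frontonasal mesenchyme, had the highest FPKM of the leading FNP genes in its lowest library, 197, and reached 286, whereas Limb libraries ranged over an order of magnitude from 1.75 to 24.1 (-4.49, SE 0.60, adjusted p = 8.5e-07). Gata2 (chr6:88193891-88207032), a zinc finger factor, was 25.7 to 55.0 FPKM in FNP and 0.502 to 1.19 FPKM in Limb (-4.41, SE 0.30, adjusted p = 2.1e-13). Sox2 (chr3:34650005-34652460), which marks placodal and neural progenitors, was 19.9, 26.3 and 45.7 FPKM in FNP and 0.151, 0.266 and 2.64 FPKM in Limb (-4.29, SE 0.29, adjusted p = 2.4e-13), the highest Limb value lying in replicate 1. The other leading genes were Pou3f3 (-4.86), Foxf1 (-4.19) and 2 noncoding transcripts beside transcription factor genes, 2610017I09Rik next to Pou3f3 (-4.37) and Six3os1 next to Six3 (-3.94), which without strand cannot be told apart from their partners.

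**Figure D2:**
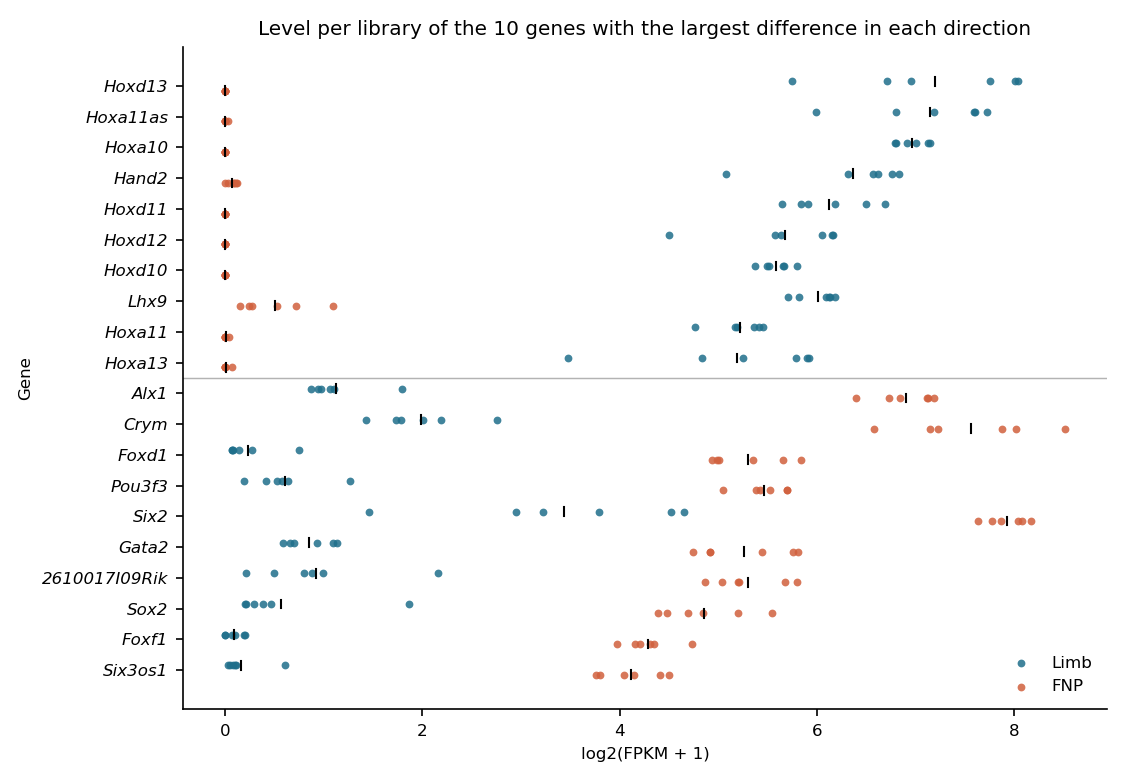
Points give log2(FPKM + 1) in each of the 6 Limb (blue) and 6 FNP (orange) libraries for the 10 genes with the largest difference in each direction, with a black bar at the mean. The groups stand clear of each other in all 20 genes, and among the Limb values of Hoxd13, Hand2 and Hoxd12 the lowest, at 52.6, 32.9 and 21.6 FPKM, all belong to replicate 4.

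The Hox genes, which give cells their position along the body and limb axes, split the tissues as a family. Of 39 listed, 32 were tested, 30 were higher in Limb and 0 in FNP, with a median difference of 2.48. The counts by cluster were 10 of 10 tested in HoxA, 3 of 5 in HoxB, 9 of 9 in HoxC and 8 of 8 in HoxD. A gene was tested only if its mean reached 1 FPKM in some tissue, and no Hox gene had an FNP mean above 0.674 FPKM. None could thus pass through FNP, and with FNP near 0 a Limb mean of about 1 FPKM already comes near the fold threshold. These counts were therefore nearly fixed by the filter and describe levels only. The 7 genes not tested had means under 1 FPKM in both tissues. The 2 tested genes not called, Hoxb6 (0.84) and Hoxb9 (0.87), missed the fold threshold and not the adjusted p (3.1e-05 and 3.1e-09).

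The clusters differed in level as well as in count. Summed over the means of their members, HoxD reached 388 FPKM in Limb and HoxA 270 FPKM, against 41.9 for HoxC and 13.4 for HoxB. Most of it lay in paralogue groups 9 to 13. Per library, groups 9 to 13 together gave 403 to 774 FPKM in Limb and 0.669 to 1.32 FPKM in FNP, and groups 1 to 8 gave 55.6 to 100.2 FPKM in Limb. In FNP groups 1 to 8 gave 0.219 to 0.760 FPKM in 5 libraries and 11.1 FPKM in FNP replicate 5. That library held 2.04 FPKM of Hoxb5, 1.27 of Hoxa5 and 1.23 of Hoxa4, and Hoxa4 (1.14 to 1.76 FPKM in Limb, difference 1.05) was the 1 called Hox gene whose groups overlapped.

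Along HoxD the Limb medians, in FPKM and so per length, were 10.7 at Hoxd8, 27.4 at Hoxd9, 47.1 at Hoxd10, 65.3 at Hoxd11, 57.0 at Hoxd12 and 169 at Hoxd13, highest at the end of the cluster. The Limb ranges of Hoxd10, Hoxd11 and Hoxd12 overlapped, so the order among those 3 is not resolved by the libraries. In HoxA the order was different, with Hoxa10 (123 FPKM) above Hoxa9 (34.0), Hoxa11 (37.8) and Hoxa13 (45.7). Hoxa13, the other gene of the last group on these clusters, varied from 10.1 to 59.5 FPKM, again lowest in replicate 4. The sum over groups 9 to 13 was lowest in the same library. Among called Hox genes, 9 were listed at 0 in all FNP libraries: Hoxa6, Hoxa10, Hoxc8, Hoxc11, Hoxc12, Hoxd10, Hoxd11, Hoxd12 and Hoxd13. Hoxc12 was the weakest of them, at 0.103 to 2.25 FPKM, and fell under the fold threshold (0.93) without Limb replicate 2. Hotair, a noncoding transcript of the HoxC cluster and the 1 of 13 listed that could be matched, was 0.923, 1.68 and 2.20 FPKM in Limb and listed at 0 in FNP (1.36, SE 0.08, adjusted p = 1.3e-15).

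**Figure D3:**
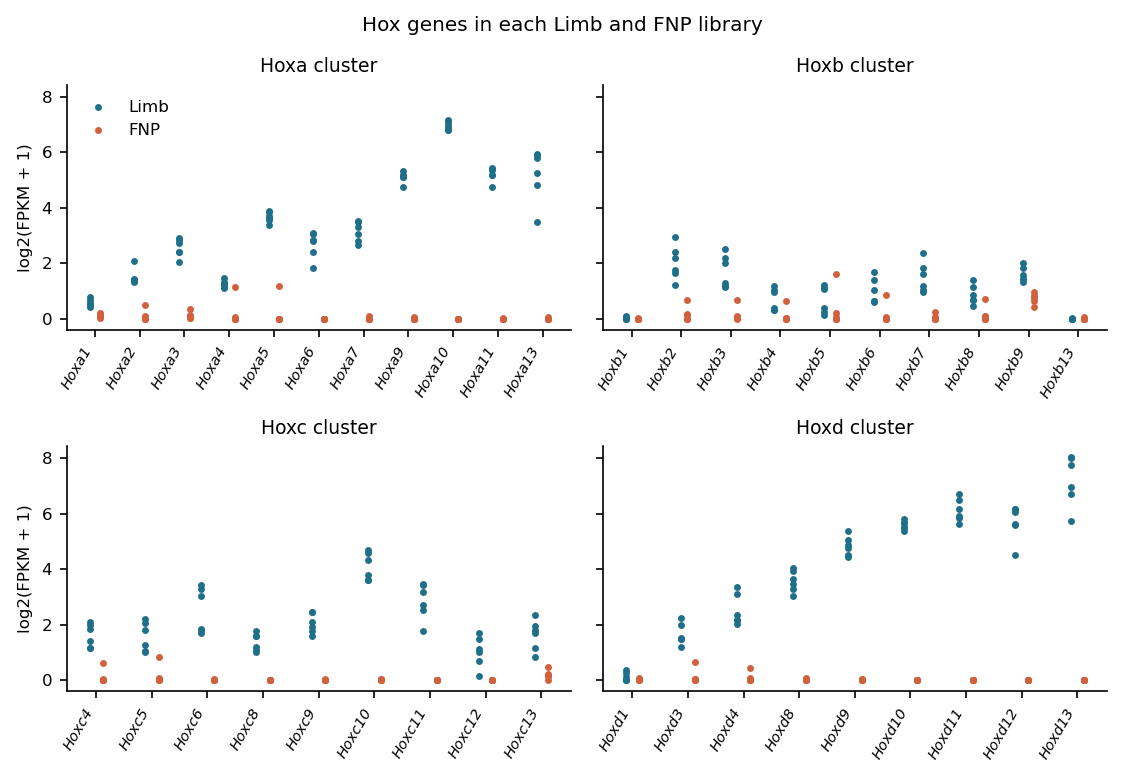
Each panel is 1 Hox cluster, with its genes in paralogue order on the x axis and log2(FPKM + 1) of each Limb (blue) and FNP (orange) library on the y axis. Most FNP points lie at or near 0, with FNP replicate 5 highest at Hoxb5 (2.04 FPKM), while Limb points climb towards Hoxa10 and Hoxd13.

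Of 35 tested genes known from limb bud mesenchyme, 19 were higher in Limb, 5 were higher in FNP and 11 were not called, with a median of 1.17. Beyond Hand2 and Lhx9, the group included Tbx15 (37.1 to 58.4 FPKM in Limb, 0.223 to 0.511 in FNP, 5.18) and Tbx18 (17.2 to 31.6 and 0.118 to 1.12, 4.12), T-box factors of the proximal limb, and Asb4 (3.45). Lmx1b, which makes the mesenchyme dorsal, was 20.5 FPKM at the Limb median and 0.987 at the FNP median (3.05, SE 0.31, adjusted p = 2.0e-09). Grem1, the Bmp antagonist that keeps the ridge signalling, was 11.1, 15.8 and 25.2 FPKM in Limb and 0.722, 1.62 and 2.94 FPKM in FNP (2.69, SE 0.20, adjusted p = 1.1e-12). Fgf10, the mesenchymal signal that starts outgrowth, had the smallest difference of the 10 limb markers, 6.51 to 8.99 against 1.56 to 3.09 FPKM (1.37, SE 0.18, adjusted p = 3.6e-07).

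The 5 members higher in FNP were Tbx2 (-2.19), Irx3 (-1.53), Tbx3 (-1.39), Rspo2 (-1.36) and Irx5 (-1.05), genes that both tissues are known to use. Tbx2 was 63.9, 75.5 and 86.4 FPKM in FNP and 5.13, 17.1 and 26.0 FPKM in Limb, with no overlap. Irx5 overlapped between the tissues, and its adjusted p of 0.0465 was 0.076 to 0.14 when 1 of 6 libraries was left out. Shh, the posterior signal itself, was not called: 1.68, 4.71 and 7.57 FPKM in Limb, 1.32, 1.90 and 12 in FNP, the highest in FNP replicate 4 (0.42, SE 0.37, adjusted p = 0.54).

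Tbx5 marks the forelimb, and Tbx4 and Pitx1 mark the hindlimb. All 3 were present together in every Limb library. Tbx5 (chr5:119834663-119885218) read 20.4, 16.1, 16.5, 12.8, 21.9 and 24.5 FPKM in Limb replicates 1 to 6 and at most 0.0141 FPKM in FNP (4.26, SE 0.14, adjusted p = 3.1e-22). Tbx4 read 21.5, 21.8, 23.6, 6.70, 25.7 and 28.6 FPKM in the same order and at most 1.13 FPKM in FNP (3.62, SE 0.21, adjusted p = 2.3e-15). Pitx1 read 51.8, 46.9, 45.5, 16.9, 68.7 and 82.2 FPKM, against 5.49 to 14.1 FPKM in FNP (2.28, SE 0.36, adjusted p = 1.6e-05). Replicate 4 was lowest in all 3, by a wider margin in the 2 hindlimb genes.

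Among 11 tested T-box factors, 4 were higher in Limb (Tbx15, Tbx5, Tbx18 and Tbx4) and 3 in FNP (Tbx22, Tbx2 and Tbx3), so the family had members at both ends. Tbx22, a gene known from palate formation, was 6.68 to 8.61 FPKM in FNP and 0.0126 to 1.68 in Limb (-2.48, SE 0.24, adjusted p = 1.0e-09). Of 10 tested LIM homeobox factors, Lhx9, Lmx1b and Lhx2 (1.17) were higher in Limb, and Lhx8 (-3.24) and Isl2 (-1.77) were higher in FNP.

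Genes of the limb ectoderm and apical ridge gave a mixed picture, 3 higher in Limb, 5 higher in FNP and 10 not called of 18 tested (median 0.17). En1 and Wnt7a, which mark the ventral and the dorsal ectoderm, were both higher in Limb: En1 at 1.37 to 3.61 against at most 0.180 FPKM (1.79, SE 0.37, adjusted p = 0.00057) and Wnt7a at 2.5 to 4.82 against 0.238 to 1.10 FPKM (1.47, SE 0.18, adjusted p = 1.4e-07). Fgf8, the main ridge signal, is also made in the nasal ectoderm, and its values overlapped widely, 17.7 to 57.4 FPKM in Limb and 8.83 to 41.8 in FNP (0.58, SE 0.39, adjusted p = 0.402). Fgf17 (-2.49), Dlx6 (-2.16), Dlx5 (-1.67), Rspo2 and Sp8 (-1.0) were the members higher in FNP. Sp8 sat at the fold threshold and fell under it, to between -0.99 and -0.93, when 1 of 6 libraries was left out.

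In FNP, 25 of 47 genes of the frontonasal and cranial crest mesenchyme were higher, 6 were higher in Limb and 16 were not called (median -1.5). Alx1 and Alx4, paired-type homeobox factors of the midface, were among the 25. Alx4, which the limb bud also uses at its anterior edge, was 51.5 to 64.2 FPKM in FNP and 3.80 to 12.7 FPKM in Limb (-2.87, SE 0.39, adjusted p = 1.2e-06). Limb libraries thus held several FPKM of Alx4 and, in the median library, 1.03 FPKM of Alx1.

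Crabp1, a retinoic acid binding protein of crest cells, reached the highest level of the group in FNP, 526, 1270 and 1920 FPKM, with 94.4, 169 and 396 FPKM in Limb (-2.75, SE 0.57, adjusted p = 0.00071). Nr2f1 (-2.72), Pax9 (-2.82), Lhx8 (-3.24), Tfap2b (-1.81) and Tfap2a (-1.72) were further members higher in FNP. Msx1 (-1.12) lost its call when 1 of 5 libraries was left out, with an adjusted p of 0.053 to 0.076. Members higher in Limb included Zic2 (2.66), Osr2 (2.13), Nrp2 (1.37) and Gsc (1.13). The general mesenchyme markers Twist1, Vim and Pdgfra were not called (-0.53, -0.33 and 0.18), and of 19 such markers 2 were higher in each tissue: Prrx1 (1.32) and Twist2 (1.27) in Limb, Zeb2 (-1.77) and Postn (-1.33) in FNP. The 19 had a median of -0.35, beside -0.06 over all genes. Called or not, 14 of them had a negative difference and 5 a positive one, beside 8379 and 5511 of all 13934 genes. Postn lost its call when 1 of 8 libraries was left out, and Twist2 when 1 of 4 was.

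The called forkhead factors were all higher in FNP. Of 34 tested members 14 were higher in FNP and 0 in Limb (median -0.40), 41.2% of the list beside 4.21% of all genes. Foxf1 (chr8:121084474-121086879), a mesenchymal target of Hedgehog signalling, was 14.8, 18.1 and 25.5 FPKM in FNP and at most 0.155 FPKM in Limb (-4.19, SE 0.30, adjusted p = 9.6e-13). The 14 also included Foxd1, Foxf2 (-2.88), Foxd2 (-2.61), Foxc2 (-1.76), Foxe1 (-1.57), Foxp1 (-1.31) and Foxl1 (-1.29).

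Of 5 tested Pax factors, Pax9, Pax3, Pax6 and Pax7 were higher in FNP and none in Limb. Pax3, an early crest and muscle precursor gene, was 9.28 to 14.2 FPKM in FNP and 1.00 to 3.16 FPKM in Limb (-2.16, SE 0.37, adjusted p = 4.8e-05). Pax9 was 13.6 to 33.4 FPKM in FNP and 0.268 to 5.95 FPKM in Limb (-2.82, SE 0.37, adjusted p = 4.2e-07). Eya factors and their homeobox partners, which act together in placodes, crest and muscle, gave 7 of 12 higher in FNP, Six2, Six3, Eya1 and Eya2 (-2.37) among them, and 1 in Limb, Dach1 (1.25). Eya1 was 24.1 to 36.6 FPKM in FNP and 2.66 to 4.39 FPKM in Limb (-2.80, SE 0.19, adjusted p = 3.2e-13).

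Genes of the nasal placode and olfactory epithelium were 22 of 38 higher in FNP, with 1 higher in Limb and a median of -1.29. The 1, Lhx2, which the limb mesenchyme shares, lost its call with 0.1 FPKM added in place of 1 (adjusted p = 0.11) and without the libraries numbered 1 (adjusted p = 0.091). Fezf1, a zinc finger factor of the olfactory sensory lineage, was 12.2, 12.7 and 14.8 FPKM in FNP and at most 0.611 FPKM in Limb (-3.67, SE 0.22, adjusted p = 7.1e-15). Six3 was 6.88 to 14.8 FPKM in FNP and at most 0.643 in Limb (-3.32, SE 0.31, adjusted p = 3.9e-10). Insm1, which marks dividing neuronal precursors, was 6.95, 9.31 and 17.1 FPKM in FNP and 0.0762 to 0.880 in Limb (-3.09, SE 0.36, adjusted p = 4.8e-08). Gnrh1, which encodes gonadotropin-releasing hormone, was 0.517, 2.66 and 3.63 FPKM in FNP and at most 0.652 FPKM in Limb (-1.24, SE 0.20, adjusted p = 1.4e-05), with a small overlap.

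Markers of neurons and neural progenitors were higher in FNP too. Of 21 neuronal markers 15 were higher in FNP and 0 in Limb (median -1.89), and their summed FPKM was 45.1 to 93.4 in Limb and 196 to 269 in FNP. Tubb3, a neuronal tubulin, was 56.6, 69.3 and 80.1 FPKM in FNP and 6.47, 8.26 and 17.3 FPKM in Limb (-2.80, SE 0.27, adjusted p = 8.6e-10). Neurog1, which specifies olfactory and cranial sensory neurons, was 1.86 to 6.40 FPKM in FNP and at most 0.196 FPKM in Limb (-2.38, SE 0.23, adjusted p = 5.8e-10). In pooled tissue, fewer cells of a type and less RNA per cell cannot be told apart.

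Neural progenitor markers were 10 of 17 higher in FNP and 0 in Limb (median -1.91), with summed FPKM of 15.8 to 73.6 in Limb and 95.2 to 298 in FNP. Their mean log2 level was 3.30 in FNP replicate 4 and 3.04 in replicate 5, against 1.71 to 2.13 in the other 4. Without those 2 libraries the count was 7 of 17 (median -0.74), Fabp7, a radial glia gene, moved from -2.02 to -0.99 (adjusted p = 0.076), and Zic1 moved from -1.57 to -0.46 (adjusted p = 0.37). The neuronal count was still 15 and 0 without them. Otx2 (8.27 to 21.2 FPKM in FNP, -3.51), Otx1 (-2.89) and Pax6 (-1.92) did not overlap between the tissues, whereas Hes5 (-1.91) and Olig2 (-2.16) did. The part of these neural progenitor genes in the FNP differences was not tested.

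Skeletal muscle genes pointed the other way. Of 12 tested markers of the muscle lineage, 9 were higher in Limb and 1, Pax7 (-1.82), in FNP. Myod1, a master regulator of myogenesis, was 2.72, 5.65 and 13.7 FPKM in Limb and at most 0.0775 FPKM in FNP (2.71, SE 0.25, adjusted p = 4.4e-10). Myog was 1.12, 6.53 and 17.4 FPKM in Limb and at most 0.165 in FNP (2.77, SE 0.40, adjusted p = 3.2e-06). Lbx1, which marks precursors that migrate into the limb, was 1.52 to 8.85 FPKM in Limb and at most 0.182 in FNP (2.25, SE 0.20, adjusted p = 2.4e-10). The summed markers ran from 20.6 to 135 FPKM across Limb libraries and from 5.65 to 9.69 FPKM across FNP libraries. The Limb libraries spread widely, and each stood above every FNP library.

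In the broader myogenesis list 11 of 25 were higher in Limb and 5 in FNP. The 5 included Eya1, Pax3 and Pax7, which crest mesenchyme or placodes also use. Of 31 genes of cartilage condensation and skeleton 6 (19.4%, beside 4.21% of all genes) were called, 3 higher in each tissue, with a median of -0.22. Gdf5, which marks future joints, was 1.17 to 9.74 FPKM in Limb and 0.0705 to 0.227 in FNP (1.96, SE 0.23, adjusted p = 4.6e-08), and Scx, which marks tendon precursors, was 27.8 to 46.9 and 6.87 to 13.2 FPKM (1.91, SE 0.25, adjusted p = 5.6e-07). Nog, the Bmp antagonist noggin (-1.27), Gdf6 (-1.20) and Col2a1, the main cartilage collagen (-1.11), were higher in FNP. Col2a1 lost its call when 1 of 6 libraries was left out, and Nog lost it with the run number as a term (-0.95). The list read 2 in Limb and 6 in FNP without FNP replicates 4 and 5, 5 and 2 after quantile normalization and 3 and 1 with run as a term. Sox9 overlapped between the tissues (-0.63, SE 0.35, adjusted p = 0.284).

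In the signalling pathways that both tissues use, the called share ran from 16.7% in the Hedgehog list to 33.3% in the retinoic acid list, beside 4.21% of all genes. In the Hedgehog list 20 of 24 were not called, among them the receptor parts Ptch1 (-0.15) and Smo (-0.11) and the target Gli1 (-0.36), and the called members were Foxf1, Foxf2 and Foxl1 (-1.29) in FNP and Osr2 in Limb. Of 32 Fgf genes 2 were higher in Limb, Fgf10 and Fgf18 (1.63), and 4 in FNP: Flrt2 (-2.81), Fgf17, Fgf15 (-1.46) and Etv1 (-1.34). Flrt2, a membrane protein that binds Fgf receptors, was 27.0, 53.5 and 83.4 FPKM in FNP and 3.51, 5.50 and 10.4 FPKM in Limb. The list had a median of -0.08, close to that of all genes.

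Of 33 Bmp and Gdf ligands and antagonists 4 were higher in Limb and 5 in FNP. The Limb members were the antagonists Grem1 and Sost and the ligands Gdf5 and Bmp2 (1.30). Sost, which encodes sclerostin, was 3.99, 7.31 and 8.87 FPKM in Limb and 0.138 to 0.450 FPKM in FNP (2.62, SE 0.12, adjusted p = 1.3e-18). The FNP members were Id4 (-2.06), Fstl5 (-2.05), Nbl1 (-1.35), Nog and Gdf6. With run as a term the FNP count was 3, and without FNP replicates 4 and 5 it was 7. Bmp4 overlapped, 26.5 to 35.4 and 16.3 to 38.2 FPKM (0.20, SE 0.27, adjusted p = 0.69).

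Of 44 Wnt ligands and modulators 5 were higher in Limb and 9 in FNP. Wnt11 was 3.46 to 13.4 FPKM in Limb and 0.132 to 0.331 in FNP (2.66, SE 0.17, adjusted p = 1.9e-14). The R-spondins, which amplify Wnt signals, divided: Rspo4 (1.84) and Rspo3 (1.26) were higher in Limb, and Rspo1 (-2.89) and Rspo2 (-1.36) in FNP. Rspo1 was 8.08, 12.5 and 15.2 FPKM in FNP and 0.211, 0.733 and 1.33 in Limb (SE 0.25, adjusted p = 5.5e-11). All 4 Dickkopf antagonists that were called, Dkk3 (-1.84), Dkk1 (-1.44), Dkk2 (-1.08) and Dkk4 (-1.04), were higher in FNP, as was Sfrp1 (-1.83).

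In the retinoic acid pathway 2 of 18 were higher in Limb and 4 in FNP, and the Limb count was 1 without Limb replicate 1, without FNP replicates 4 and 5 and with 0.1 FPKM added in place of 1. Aldh1a3, which makes retinoic acid in the nasal region, was 6.5, 9.58 and 16.0 FPKM in FNP and 0.0426 to 0.358 in Limb (-3.24, SE 0.33, adjusted p = 2.9e-09), while Aldh1a2 overlapped (0.23, adjusted p = 0.797). Cyp26b1, which breaks retinoic acid down in the distal limb, was 21.0 to 65.7 FPKM in Limb and 5.90 to 43.3 in FNP (1.24, SE 0.40, adjusted p = 0.037). Of 52 axon guidance genes 7 (13.5%, beside 4.21% of all genes) were called. The called ones were Nrp2 (1.37), Robo2 (1.29), Nrp1 (1.06) and Slit3 (1.00) in Limb and Efna5 (-1.87), Ephb1 (-1.18) and Robo1 (-1.06) in FNP, and Robo2 had an adjusted p of 0.1 without FNP replicates 4 and 5. With 0.1 FPKM added in place of 1 the axon guidance counts were 7 in Limb and 10 in FNP, with run as a term 5 and 1, and without FNP replicates 4 and 5 they were 2 and 4.

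Other regulator families were small. Zic factors gave 3 of 5 higher in Limb and 1 in FNP. Zic2 was 13, 28.7 and 34.8 FPKM in Limb and 0.840, 2.40 and 9.59 in FNP (2.66, SE 0.31, adjusted p = 5.5e-08), and the single FNP member, Zic1, lost its call when 1 of FNP replicate 4, FNP replicate 5 or Limb replicate 4 was left out (adjusted p from 0.059 to 0.092), and after quantile normalization (adjusted p = 0.067). Sall1 (2.16) and Sall3 (2.05) were higher in Limb. Sox genes gave 4 of 17 higher in FNP and 0 in Limb: Sox2, Sox3 (-2.30), Sox21 (-1.97) and Sox10 (-1.62). Of 11 Meis and Pbx factors Meis3, at 12.5 to 14.1 FPKM in FNP and 1.16 to 2.55 in Limb (-2.37, SE 0.13, adjusted p = 1.1e-15), and Pknox2 (-1.0) were called, and Pknox2 lost its call when 1 of 6 libraries was left out.

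The list of imprinted genes gave 6 of 45 higher in Limb and 2 in FNP (17.8% called, beside 4.21% of all genes, median 0.16). Its largest differences in each direction, Asb4 (3.45) and Dlx5 (-1.67), belong to genes counted in other lists too. Asb4 also stands in the limb bud mesenchyme list, and Dlx5 in those of the limb ectoderm and the nasal placode. Igf2, a fetal growth factor expressed from the paternal allele, was 435, 828 and 995 FPKM in Limb and 144, 250 and 329 FPKM in FNP (1.74, SE 0.41, adjusted p = 0.00306). Its neighbour H19 was 5.63 to 16.7 and 2.19 to 4.66 FPKM (1.41, SE 0.24, adjusted p = 4.8e-05), and neither gene overlapped between the tissues. Among 19 immediate early and heat shock genes Klf4 (-1.88) was the 1 called, a share of 5.26%, near the 4.21% of all genes. None of the 5 tested sex-linked genes was called in limma, and 0 of them had an unadjusted p under 0.05.

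Among markers of other cells, endothelial (18 tested), erythroid (11) and macrophage (13) markers had 0 calls in limma, beside 4.21% of all genes, with 1, 0 and 1 at an unadjusted p under 0.05. Their medians were -0.03, -0.05 and -0.24, beside -0.06 over all genes. The difference was negative in 11 endothelial, 8 erythroid and all 13 macrophage markers. Of 23 surface epithelium markers 7 were higher in FNP and 2 in Limb, and the 2 were the keratins Krt17 (1.88) and Krt5 (1.79). The counts were 2 and 2 with 0.1 FPKM added in place of 1, and 11 and 1 without FNP replicates 4 and 5. Krt5 overlapped and had a difference of 0.97 (adjusted p = 0.18) without FNP replicates 4 and 5, the FNP libraries with the lowest mean log2 level of this list (3.00 and 3.06, against 3.57 to 3.89 in the others). The keratins of simple epithelia, Krt8 (-1.61) and Krt18 (-1.30), were higher in FNP, at 19.7 to 40.1 and 18.9 to 39.9 FPKM against 5.37 to 14 and 7.24 to 16.2 in Limb. Of 10 markers of crest glia and pigment cells, Fabp7, Sox10 and Erbb3 (-1.40) were higher in FNP.

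**Figure D4:**
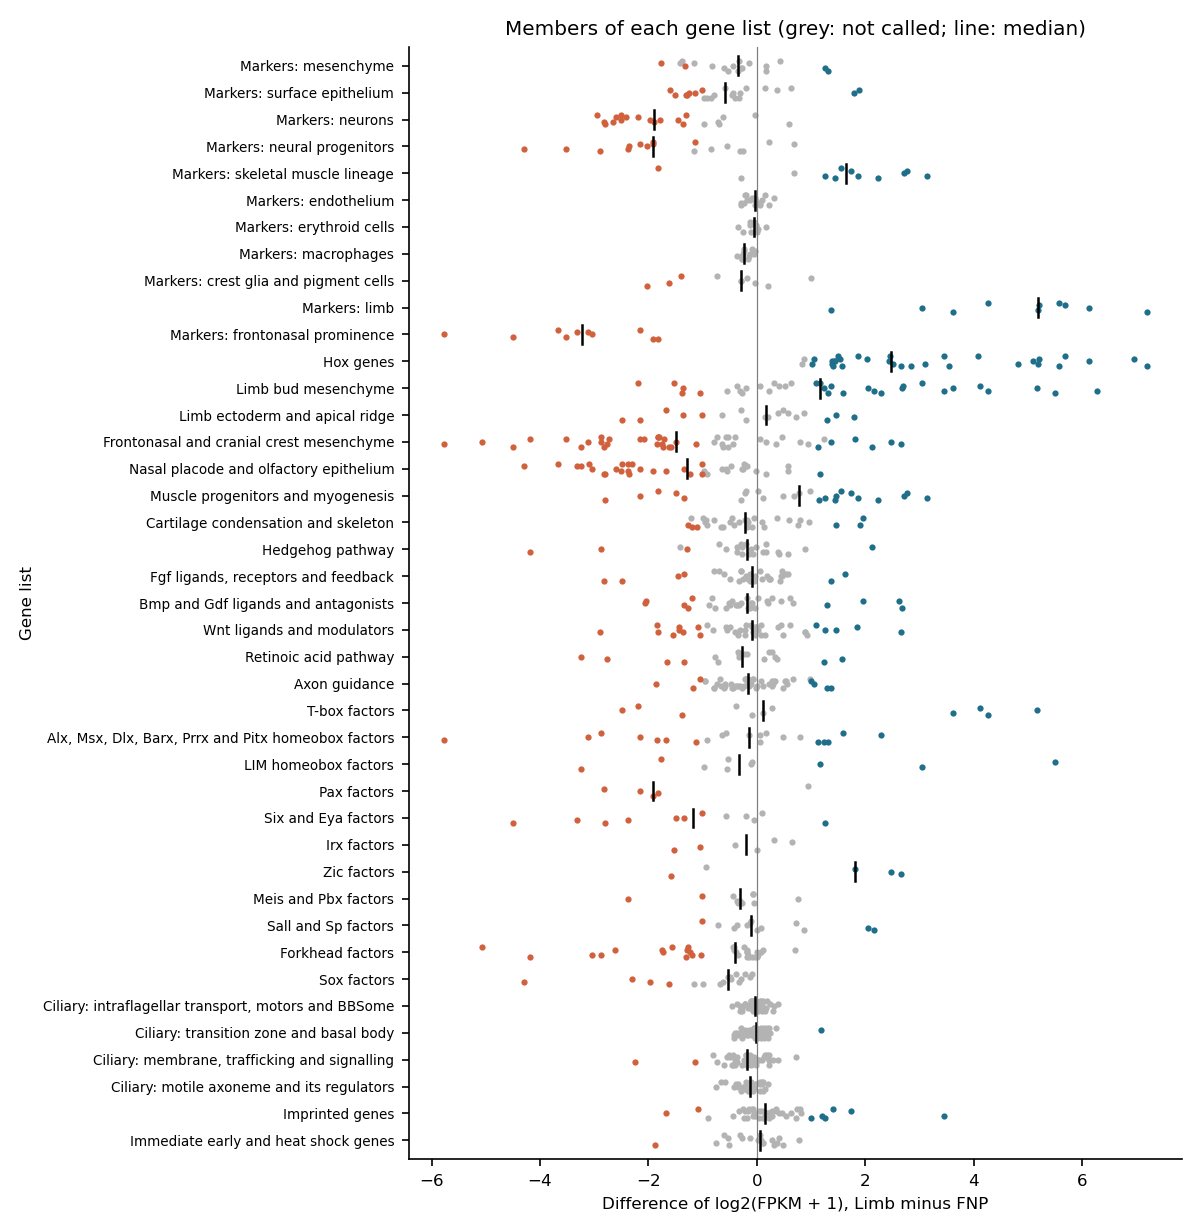
Each row is a gene list and each point a tested member, placed by its difference of log2(FPKM + 1), Limb minus FNP; blue points were higher in Limb, orange higher in FNP, grey not called, and the black line is the median. The Hox row lies wholly to the right (30 of 32 called), the forkhead, neuronal and placodal rows reach left, and the 4 ciliary rows hold 3 called genes of 178.

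Few of the ciliary genes listed here were called between these tissues. The lists were drawn up for this comparison and are not the study's curated ciliome, so their share is not that of the ciliome. Of 178 tested in 4 lists, 3 (1.69%) were called, beside 4.21% of all genes, and the median was -0.07. The calls were 0 of 45 genes of intraflagellar transport, its motors and the BBSome, 1 of 50 of the transition zone and basal body, 2 of 49 of the ciliary membrane and trafficking, and 0 of 36 of the motile axoneme, some genes standing in more than 1 list. At an unadjusted p under 0.05 the counts were 8, 14, 18 and 9, and 48 of the 178 together, beside 3357 of all 13934 genes (24.1%). The abundant ciliary genes Ift20 (32.2 to 57.5 FPKM over all 12 libraries, 0.12) and Arl3 (47.1 to 73.6 FPKM, -0.13) overlapped between the tissues.

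The 1 listed ciliary gene higher in Limb was Tsga14 (chr6:30653457-30693682), the older symbol of Cep41. Cep41 is a centrosomal protein linked to tubulin glutamylation in the axoneme and mutated in Joubert syndrome. Tsga14 was 12.6, 14.7 and 17.6 FPKM in Limb and 5.53, 5.88 and 6.39 FPKM in FNP, with no overlap (1.18, SE 0.08, adjusted p = 3.8e-14). Its difference lay between 1.12 and 1.30 over the alternatives tried. Fez1, a kinesin adaptor, was higher in FNP, 11.9, 13.7 and 18.1 FPKM against 1.47, 1.96 and 5.45 (-2.24, SE 0.18, adjusted p = 1.6e-11), and Ap1m2, an adaptor subunit of epithelial cells that also stands in the surface epithelium list, was 7.42 to 12.9 against 2.54 to 5.18 FPKM (-1.15, SE 0.22, adjusted p = 0.00027). Ap1m2 was not called with 0.1 FPKM added in place of 1 (adjusted p = 0.083) or after quantile normalization (-0.98). Fez1 moved beside the neuronal markers and Ap1m2 beside the epithelial ones, and the part of those cells was not tested. In the study's single-cell data of the MNP at E11.5, Fez1 and Tubb3 were found nearly only in mesenchymal clusters, and Ap1m2 more strongly in epithelial ones. Among other genes that the study discusses by name, Rab3il1 did not overlap but missed the fold (-0.56, SE 0.18, adjusted p = 0.0329). Flna (-0.51, adjusted p = 0.126), Pkp3 (-0.40, adjusted p = 0.135) and Tulp3 (-0.21, adjusted p = 0.472) were not called. Tubb3, which the study names beside Fez1, stood in none of the ciliary lists and was called higher in FNP, as given with the neuronal markers. Not every gene that the study names is given here.

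Because the tables are per transcript, the share of a gene's FPKM that each transcript holds could be compared as well. Of 9337 transcripts of 3695 genes, 2 (0.0214%) changed their share by at least 20 percentage points at an adjusted p under 0.05 in limma, while 495 had an unadjusted p under 0.05. The count was 6 with replicate number as a block, and 5 without FNP replicate 3 or without Limb replicate 4. For Tpd52, the transcript uc008oov.1 (2266 bases, chr3:8929436-9004515) held 90.0% ± 3.28 of the gene in Limb and 58.5% ± 9.36 in FNP (SD, n = 6 each, difference 31.5 points, SE 3.82, adjusted p = 0.00789). Its own level was 7.22 FPKM in Limb and 6.63 in FNP on average, while the other 4 transcripts of the gene were higher in mean in FNP. For Sema3a, which encodes a guidance signal for axons and endothelium, uc008wmc.3 (6850 bases, chr5:13399309-13603485) held 25.9% ± 7.25 in Limb and 59.2% ± 6.24 in FNP (-33.3 points, SE 3.69, adjusted p = 0.00467), with 3.04 and 11.1 FPKM. The shares did not overlap between the tissues in either case, and they rest on how the estimator divides reads among overlapping transcripts.

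The leading genes were also measured in the other tissues. These comparisons share the Limb or FNP libraries with the main one, so their values stand side by side only. By the same rule 2.71% of all genes tested were called between Limb and MNP, 3.34% between Limb and MXP, 2.68% between FNP and MNP and 2.28% between FNP and MXP. Hand2 had 94.2 ± 11.8 FPKM in MNP (n = 6), within the range of Limb (difference Limb minus MNP -0.20, adjusted p = 0.848), and FNP minus MNP was -6.49 (adjusted p = 1.2e-16). Igf2 had 795 ± 122 FPKM in MNP and Limb minus MNP of -0.04 (adjusted p = 0.985). Pitx1 was higher in MNP than in Limb (120 ± 21.3 FPKM, -1.31, adjusted p = 0.0179), and so was Osr1 (34.7 ± 8.47 FPKM, -1.37, adjusted p = 0.00052), although both were higher in Limb than in FNP (2.28 and 2.69).

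Hoxd13, Hoxa10 and Tbx5 had means of at most 0.493 FPKM in each of the other 4 tissues. Among the leading Limb genes Lhx9 had 18.6 FPKM in dNT and 9.27 in vNT. Tsga14 was 6.62 FPKM in MNP and 6.63 in MXP, so that Limb exceeded both (1.04, adjusted p = 1.1e-12, and 1.05, adjusted p = 3.4e-12), and FNP minus MNP was -0.14 (adjusted p = 0.397). On the FNP side, Alx1 was also higher than in MNP (2.72, adjusted p = 5.9e-05) and MXP (1.90, adjusted p = 0.01), and Gata2 (3.92 and 3.23) and Crym (2.95 and 3.03) were higher than in both as well. Foxf1 was not: 20.6 FPKM in MNP, with FNP minus MNP of -0.07 (adjusted p = 0.997). Sox2 was 115 FPKM in dNT and 117 in vNT, and Pou3f3, at 41.9 FPKM in MXP and 60.4 and 60.9 in dNT and vNT, was not called between FNP and MXP (0.09, adjusted p = 1.0).

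**Figure D5:**
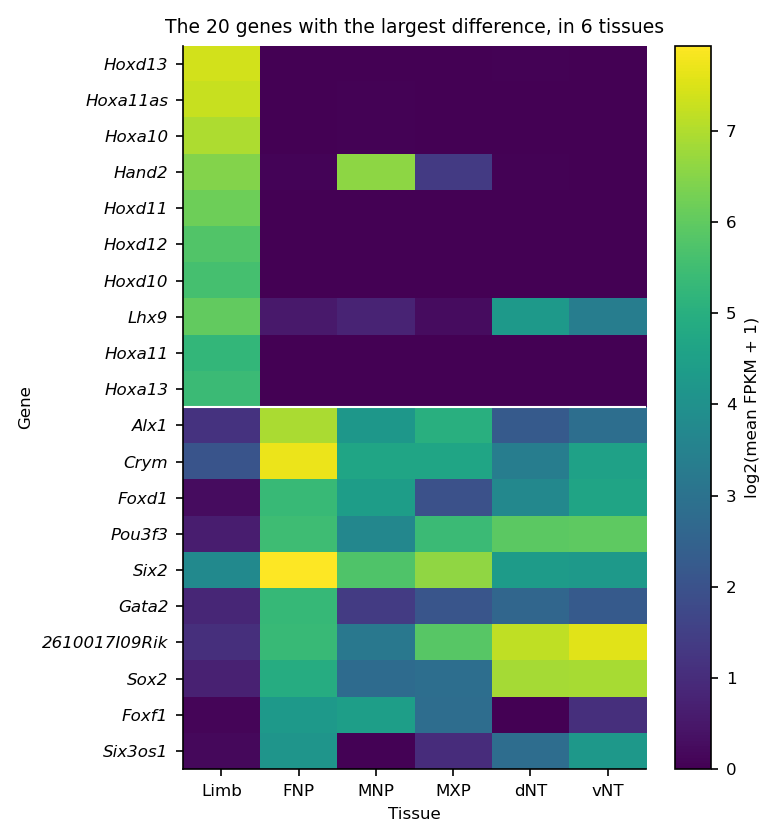
Colour gives log2(mean FPKM + 1) of the 20 genes with the largest difference (rows, Limb genes above the line, FNP genes below) in 6 tissues (columns). Bright cells outside the Limb and FNP columns include Hand2 in MNP (94.2 FPKM), Lhx9 in dNT (18.6 FPKM), Sox2 in dNT and vNT (115 and 117 FPKM) and, among the FNP genes, Six2 in MXP (97.8 FPKM).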

How the data were processed

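Polyadenylated RNA of Limb and FNP tissue was sequenced as paired ends. The authors deposited 1 Cufflinks table per library with FPKM values per UCSC known gene transcript on mm10, and with the coverage of each transcript, a signal value used here only to judge depth. The submitters' processing notes also name Bowtie2 and DESeq2, but the aligner behind these tables, the Cufflinks version and the strand setting are named in no source used here. Each table held 59120 transcripts, of which 65 had unreadable values and 59055 were used. FPKM was summed over 30723 gene symbols, 175 of which lie on several chromosomes (none called). A failed estimate touched 16 genes (none called).

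The 13934 genes whose mean reached 1 FPKM in any of 6 tissues were fitted as log2(FPKM + 1) with limma 3.58.1 (R 4.3.3, trend and robust), with 1 mean per tissue over all 35 libraries. Calls took a p under 0.05 after Benjamini-Hochberg adjustment and a 2-fold change, which is understated for low genes. FPKM is no count, so no count model was run. Transcript shares were fitted with limma on the share itself over the 12 Limb and FNP libraries, with the robust option and without trend. Genes needed at least 5 FPKM in each library and 2 or more transcripts, and each transcript a mean share of 0.05 to 0.95. Other values came from Python 3.11.15, pandas 2.3.3 and SciPy 1.17.1, and figures from matplotlib 3.10.9. The fits were tested on simulated data. Tissue groups came from the sample labels. The pools are described as independent replicates of several embryos each, and the study used mice of both sexes. RefSeq start windows were matched by symbol.

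The gene lists, members and tests were chosen with earlier results of these data known. Named genes were the 10 largest non-overlapping differences in each direction, the 3 largest called members of each list, all called members of lists with 5 or fewer, the called ciliary genes, the limb, FNP and Hox genes, ciliary genes discussed by the study and up to 5 abundant uncalled members of a list. Further list members, those in the last part on other observations, and Shh, Osr1, Tbx2, Tbx3, Tbx22, Insm1, Neurog1, Lbx1, H19, Wnt7a, Bmp2, Msx1, Col2a1 and Nog were named after their values were seen. Alternatives covered the added constant, the filter on low values, quantile normalization, short transcripts, the libraries in the fit, run, replicate number and fold threshold. Omission of FNP replicates 4 and 5, omission of the libraries numbered 1, and the fit within runs that hold both tissues were chosen after seeing the data. Some members of the lists are not reported here by name.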

Additional observations from a re-analysis of the deposited data

Results flagged for a closer look

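In 239 groups of 6 libraries, formed by the named genes in each tissue, 15 had a highest or lowest library farther from the others than Dixon's 95% critical value for 6 samples allows. Chance flags about 1 in 20 groups where groups are independent. The groups here share the same libraries, so that rate cannot serve as a yardstick for their count. Of the 15, 10 concerned Limb replicate 4, 4 concerned Limb replicate 1 and 1 concerned FNP replicate 2.

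Limb replicate 4 was low in genes of the limb mesenchyme. It held 32.9 FPKM of Hand2 (78.6 to 113 in the other Limb libraries), 21.6 FPKM of Hoxd12 (46.7 to 70.7), 3.7 FPKM of Lmx1b (16.5 to 24.8), 6.7 FPKM of Tbx4 (21.5 to 28.6), 5.13 FPKM of Tbx2 (15.3 to 26.0) and 2.29 FPKM of Evx1 (6.06 to 8.06). Nrp2, a semaphorin and Vegf co-receptor, was 12.8 FPKM (35.2 to 61.5), and the growth factor Igf2 was 435 FPKM (732 to 995). In the same library 2 genes were high, Hoxa2 at 3.27 FPKM (1.52 to 1.71) and Alx1 at 2.47 FPKM (0.829 to 1.15). It was also the single Limb library of its run. Without it 557 genes were called, 198 higher in Limb and 359 higher in FNP.

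Limb replicate 1 was high in Tubb3, 17.3 FPKM (6.47 to 8.69 in the others), in Fabp7, 4.85 FPKM (0.0716 to 0.689), and in Fez1, 5.45 FPKM (1.47 to 2.09), and low in Hoxa9, 25.7 FPKM (33.4 to 38.9). The mean log2 level of the neural progenitor markers was 1.54 in this library and 0.521 to 0.777 in the other Limb libraries. The part of these markers in the values of Limb replicate 1 was not tested. FNP replicate 2 held 12.7 FPKM of Rab3il1 (15.5 to 17.0 in the other FNP libraries).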

How the results depend on the processing

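None of the 586 called genes changed direction in any alternative that tested it. The totals moved by over 1.5 times with 0.1 FPKM added in place of 1 (1146 called, 884 higher in FNP), with replicates 4 to 6 alone (386 and 251) and when tested against a fold of 1.5 (371 and 237). Leaving out 1 library gave 551 to 619 calls, 177 to 198 of them higher in Limb. Ciliary calls were 6 with 0.1 FPKM added (Ccno, Faah, Fez1, Mcin, Rsph1 and Tsga14) and 3 to 4 without 1 library. Transcript share calls were 4 with at least 10 FPKM per library, 4 with a difference of at least 0.1, 6 with the replicate block and 2 to 5 without 1 library, with 5 without FNP replicate 3, 5 without Limb replicate 4 and 3 without Limb replicate 1. Shh, not called, turned from 0.42 to -0.057 (adjusted p = 0.99, limma) in replicates 4 to 6. The cause of these moves was not tested. Run as a term gave 200 calls higher in Limb and 333 in FNP, omission of FNP replicates 4 and 5 gave 179 and 472, and omission of the libraries numbered 1 gave 180 and 409. Same-numbered Limb and FNP libraries deviated from their group means with r of 0.31, 0.07, 0.24, 0.32, 0.39 and 0.34 across genes. The second lies under 0.1, so the numbers were not taken as pairs, although 8 of the 12 libraries correlated best with their own number. The replicate block gave 596 gene calls and the 6 transcript share calls above. Without read counts, depth can be judged only from coverage, and genes near 1 FPKM are the least certain.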

Other observations

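Several genes outside the lists above also separated the tissues without overlap, and they were chosen after their values were seen. Higher in Limb were the homeobox gene Meox2, at 29.7, 39.0 and 50.9 FPKM against 0.223, 0.568 and 0.902 in FNP (4.67, SE 0.22, limma adjusted p = 8.1e-18), and Bhlha9, a helix-loop-helix gene of the apical ridge, at 9.41 to 15.4 against at most 0.0445 FPKM (3.73, SE 0.07, adjusted p = 9.3e-29). Evx1 (2.68) and Evx2 (2.53), which lie beside the HoxA and HoxD clusters, were higher in Limb as well. Evx2 ran from 0.745 to 10.1 FPKM in Limb and had at most 0.101 FPKM in FNP. Mecom, a zinc finger regulator, was 74.8 to 90.1 against 9.11 to 17.7 FPKM (2.64, SE 0.16, adjusted p = 1.4e-14). Pmaip1, which encodes the apoptosis regulator Noxa, was 35.4 to 66.1 against 5.00 to 10.2 FPKM (2.70, SE 0.18, adjusted p = 9.4e-14). The connexins Gjb2 (2.67) and Gja3 (2.51) belonged to the same side.

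Mab21l1 and Mab21l2 were higher in Limb than in FNP by 2.39 and 2.33, but they were not limb genes alone. Mab21l2 was 56.8 to 105 FPKM in Limb, 8.36 to 23.4 in FNP, and 104 and 144 FPKM on average in MNP and MXP. Mab21l1 averaged 36.9 and 42.9 FPKM in MNP and MXP, against a Limb range of 22.7 to 38.5.

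Other genes were higher in FNP. Col8a2, a short-chain collagen, was 7.73, 15.6 and 22.4 FPKM in FNP and 0.163, 0.663 and 1.71 in Limb (-3.12, SE 0.39, adjusted p = 1.9e-07). Cldn11, a tight junction protein, was 10.8 to 24.7 against 0.592 to 1.41 FPKM (-2.93, SE 0.34, adjusted p = 5.3e-08), and Plat, which encodes tissue plasminogen activator, was 12.4 to 15.2 against 1.34 to 2.45 FPKM (-2.40, SE 0.13, adjusted p = 5.5e-16). Pid1 (-2.86), Crtac1 (-2.48), Igfbp7 (-2.14) and Gata3 (-2.14) were further genes of this side.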
